A study of Mus musculus with 16 samples.

Results

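The genes described are the mouse nucleoporins, importins, transportins and exportins, taken as every gene whose symbol starts with Nup followed by a digit or the letter l, or with Xpo, Ipo and a digit, Kpna, Kpnb or Tnpo. There were 45 such genes among the 15386 genes of the RNA-seq table, 22 nucleoporins and 23 carrier genes, and 44 among the 13490 genes of the m6A table. Nuclear pore complexes are the channels of the nuclear envelope, built from ring-shaped scaffolds of nucleoporins around a channel lined with disordered FG-repeat nucleoporins, with filaments on the cytoplasmic face and a basket on the nuclear face. Importins, transportins and exportins are the carriers that bring cargo through the channel, and the small GTPase Ran sets the direction of transport. Red cell precursors condense and then expel their nucleus as they mature, and Xpo7 is an exportin known for its high expression and its role in that step.

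Smart-seq2 RNA-seq libraries, primed with oligo-dT, were made from erythroid progenitors sorted from bone marrow, with 3 of control CFU-E, the colony-forming progenitors that precede proerythroblasts, and 3 of CFU-E labelled Mettl3-deficient with low surface Kit (CFU-E Kit-low). Mettl3 is the catalytic subunit of the complex that writes N6-methyladenosine (m6A) on mRNA, and it was deleted in Mettl3 fl/fl mice carrying EpoR-tdTomato-Cre, on a C57BL/6 background, as adults of both sexes, which are heterozygous for the Cre. The Cre is driven by the erythropoietin receptor gene and recombines in erythroid cells and in erythroblastic island macrophages, and the genotype behind the label Control is not given in the labels. A second experiment took 2 m6A immunoprecipitation (IP) libraries and 2 input libraries from control CFU-E only. The RNA-seq groups differed in genotype and in the Kit gate together, so these cannot be told apart. No sample was of control CFU-E with low Kit, and the 6 proerythroblast samples were not analysed here. The labels do not say that replicates came from separate animals, so p-values measure the spread between these samples.

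The libraries summed to between 17429262 and 21329242 counts in the RNA-seq and between 19421059 and 37142742 counts in the m6A experiment. Mettl3 mRNA did not separate the groups, at 116, 123 and 131 CPM (counts scaled to library size, with TMM factors) in control and, for the libraries carrying the Mettl3-deficient label, at 117, 126 and 106 CPM (log2 fold change -0.07, standard error 0.096, adjusted p = 0.63 by edgeR's quasi-likelihood test). Counts summed over a whole gene cannot show whether particular exons were deleted, so this value does not test the deletion, and the groups are named here by their labels. Kit, by which the cells were gated, was at 549 to 628 CPM in control and 43.4 to 68.4 CPM in Kit-low cells. All 6 defining CFU-E genes were present, and their summed level was 4036 to 4123 CPM in control and 4198 to 4493 CPM in Kit-low cells, with 4 of the 6 fitted above 0, Epor and Klf1 1.51-fold higher and Kit 10.8-fold lower. The 10 late erythroid genes summed to 1130.4 to 1239.8 CPM in control and 4070.4 to 5816 CPM in Kit-low cells, with all 10 fitted above 0, whereas the 6 early progenitor genes in the table summed to 189 to 209 CPM in control and 27.2 to 31 CPM in Kit-low cells. That sum was mostly Myb (7.12-fold lower) and Gata2 (15.2-fold lower), and of the 4 early progenitor genes tested 1, Cd48, was fitted above 0 and Meis1 did not pass (-0.42, adjusted p = 0.67). Summed markers of other lineages were low in both groups, 22.6 to 27.8 against 12.5 to 16 CPM for 9 macrophage genes, of which Adgre1 had no more than 3 counts in any library, 26 to 39.6 against 16 to 24.5 CPM for 9 granulocyte and monocyte genes, 4.35 to 6.63 against 6.65 to 15.9 CPM for 3 megakaryocyte and platelet genes, and 1.06 to 2.02 against 1.14 to 3.71 CPM for 6 lymphoid genes. The part of these marker differences in the results on transport genes was not tested. In bulk libraries fewer cells of a type and less RNA per cell cannot be told apart.

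Sequences are shown first for the genes on which the results turn. GGACU is the most common form of the motif that the Mettl3 complex methylates, and for the 9 genes with more signal in the IP than in the input and the 2 with less, the copy nearest to the end of the coding sequence is printed with 10 bases on each side, as DNA on the strand of the gene, from 5′ to 3′ in GRCm38 with GENCODE vM21 transcripts, with the motif in capitals. Only copies whose printed window lies within a single exon were considered, so a nearer copy beside an exon junction could have been passed over.
Nup98, chr7:102120512-102120536, minus strand, coding, exon 33 of 33: ccatgcctgaGGACTacgccttgga
Tnpo2, chr8:85055728-85055752, plus strand, 3′ UTR, exon 25 of 25: aggtgggtggGGACTccattctcat
Tnpo1, chr13:98859875-98859899, minus strand, coding, exon 13 of 24: atcacctgctGGACTcttagccgct
Nup107, chr10:117777603-117777627, minus strand, coding, exon 9 of 28: tgtttcagagGGACTcactggtccg
Nup54, chr5:92425754-92425778, minus strand, coding, exon 5 of 12: agatgaagatGGACTagtagtttta
Kpnb1, chr11:97166059-97166083, minus strand, coding, exon 16 of 22: cctgggcattGGACTgaaaaattat
Tnpo3, chr6:29541230-29541254, minus strand, 3′ UTR, exon 23 of 23: atgatagtccGGACTagccagggtc
Ipo7, chr7:110055433-110055457, plus strand, 3′ UTR, exon 25 of 25: atgggctacaGGACTatttaaaatg
Ipo5, chr14:120946725-120946749, plus strand, coding, exon 26 of 26: ggaggattgtGGACTgaatgcatag
Kpna4, chr3:69079435-69079459, minus strand, coding, exon 15 of 17: agtacttgatGGACTaagtaatata
Ipo8, chr6:148782761-148782785, minus strand, coding, exon 22 of 25: gtgtataataGGACTgagtgtgctc
These are matches of 5 letters, not measured sites, because the counts are per gene. In the chosen transcripts the motif was held by 97.7% of the 43 members tested and by 91.2% of the 11441 genes of the m6A comparison that have an annotated transcript. The transcripts of the members were longer, with a median of 4766 against 2929 bases, and their median density of the motif was lower, 0.898 against 1.04 copies per kilobase. The printed copy lay 65 (Ipo5) to 1996 (Nup107) bases from the end of the coding sequence in the 9 genes called higher, and 261 (Kpna4) and 510 (Ipo8) bases from it in the 2 called lower.

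Promoters are shown for the 4 nucleoporins called in the RNA-seq comparison, 3 higher and 1 lower, as the 250 bases before the RefSeq start in GRCm38.p6, from 5′ to 3′ on the strand of the gene. Capitals mark CCAAT, which reads ATTGG from the other strand, and GCATGCGC, which reads GCGCATGC from the other strand, the core of the palindrome bound by nuclear respiratory factor 1. Both strings of letters were chosen after these sequences were read, and the 2 strands of GCATGCGC overlap within 1 palindrome.
Nupl2, chr5:24164713-24164962, plus strand: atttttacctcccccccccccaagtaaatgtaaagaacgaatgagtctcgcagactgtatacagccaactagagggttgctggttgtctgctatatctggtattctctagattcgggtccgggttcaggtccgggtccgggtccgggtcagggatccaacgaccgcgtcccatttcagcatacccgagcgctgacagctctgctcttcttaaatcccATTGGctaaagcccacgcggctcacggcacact
Nup50, chr15:84923178-84923427, plus strand: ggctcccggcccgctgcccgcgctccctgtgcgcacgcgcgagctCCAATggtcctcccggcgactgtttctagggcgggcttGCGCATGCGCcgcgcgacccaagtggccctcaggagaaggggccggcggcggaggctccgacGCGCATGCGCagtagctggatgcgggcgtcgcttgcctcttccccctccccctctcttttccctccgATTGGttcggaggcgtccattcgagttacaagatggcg
Nup62, chr7:44815838-44816087, plus strand: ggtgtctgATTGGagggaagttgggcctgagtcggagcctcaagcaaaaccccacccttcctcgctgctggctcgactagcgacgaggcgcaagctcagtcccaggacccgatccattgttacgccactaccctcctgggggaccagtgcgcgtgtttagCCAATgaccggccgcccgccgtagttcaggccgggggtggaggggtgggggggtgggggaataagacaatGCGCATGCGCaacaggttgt
Nup37, chr10:88146742-88146991, plus strand: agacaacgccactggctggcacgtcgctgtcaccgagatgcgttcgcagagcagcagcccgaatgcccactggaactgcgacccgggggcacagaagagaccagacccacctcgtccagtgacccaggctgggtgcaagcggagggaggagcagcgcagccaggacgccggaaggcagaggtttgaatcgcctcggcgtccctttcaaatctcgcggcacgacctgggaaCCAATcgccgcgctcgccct
RefSeq promoters, of 300 bases each, were given for 35 of the 45 members. GCATGCGC on either strand was in 5 of these 35 (14.3%), namely Nup50, Nup62, Nup107, Nupl1 and Xpo5, and in 2.8% of 27025 promoters. CCAAT on either strand was in 17 of 35 (48.6%) against 37.8% of all promoters. AGATAA, a form of the GATA motif, was in 1 of 35 (2.9%) against 11.3%, and CACGTG was in 7 of 35 (20%) against 7.1%. The 27025 promoters were not matched to the members in expression or base content. These shares therefore do not set the members against similar genes. The 5 genes with GCATGCGC did not go the same way in the comparison of Kit-low with control cells, since Nup50 and Nup62 were called higher, Xpo5 was lower by less than 1.5-fold, Nup107 did not pass the test and Nupl1 was not tested. No RefSeq promoter entry was used for Xpo7, Xpo4, Kpna1, Kpna3, Kpna6, Kpna2-ps, Nup35, Nup43, Nup85 or Nup210l.

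Levels were first compared between genes per transcript length, as TPM (counts scaled for transcript length and library size) computed from the counts and 1 annotated transcript a gene, so a gene with another main transcript would shift. In control CFU-E the highest member was Kpna2, the importin alpha linked with proliferating cells, at 871 ± 0.47 TPM (SD, n = 3). Nup62, an FG-repeat protein of the central channel, followed at 587 ± 11.9 TPM, and Nup85, of the outer ring, at 374 ± 25.2 TPM. Each of these 3 lay above the next without overlap of the 3 libraries.
Nup37 (205 ± 20.8 TPM) and Ipo5 (201 ± 7.77 TPM) overlapped each other, and Nup93, the inner ring scaffold, was at 178 ± 3.54 TPM. From Nup107, Nup54 and Nup88, at 105 TPM each, down to Nup133 at 66.8 ± 3.05 TPM, every gene overlapped its next neighbour in the order. Kpnb1, the importin beta that carries most importin alpha cargo, was at 46.5 ± 0.68 TPM, far below its adapter Kpna2, and Xpo1, the general exportin, was at 76.4 ± 5.68 TPM.
The lowest members tested were Nup43 at 8.52 ± 0.554 TPM, Xpo7 at 3.29 ± 0.343 TPM and Nup210l, a paralog of Nup210 known from testis, at 0.526 ± 0.167 TPM. The median over the genes of a role was 95.5 TPM for the 6 outer ring genes, 59.6 TPM for the 5 inner ring genes, 55.7 TPM for the 11 importin betas and transportins and 52.5 TPM for the 5 importin alphas other than the pseudogene Kpna2-ps (34.4 TPM for all 6).

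**Figure D1:**
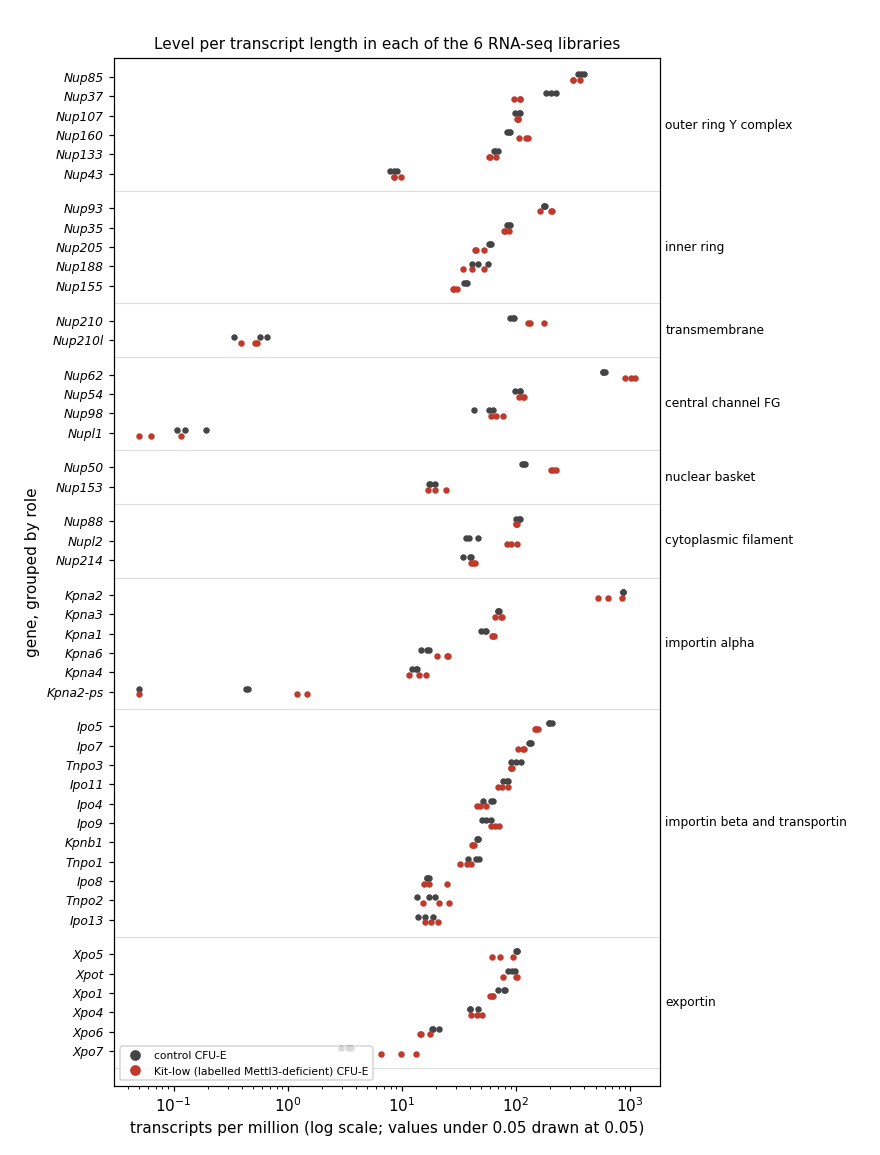
Levels of the 45 members in TPM on a log axis, grouped by role, with 1 point for each of the 3 control CFU-E libraries (dark grey) and the 3 Kit-low libraries labelled Mettl3-deficient (red); values under 0.05 are drawn at 0.05. Kpna2 and Nup62 stand at the top, and Xpo7 lies below all other exportins in control cells.

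For 2 members the counts say little about the gene. Nupl1, which encodes the channel nucleoporin Nup58, was at 0 to 0.343 CPM in the 6 RNA-seq libraries and was not tested. It shares 48.8% of its exonic bases with Gm49336 on the same strand, a gene at 118 to 147 CPM in control and 97.9 to 107 CPM in Kit-low cells, so the counts of both rest on how the quantification divided reads between them. Kpna2-ps, a processed pseudogene of Kpna2, lies wholly within exons of Med20 on the opposite strand and was at 0 to 1.06 CPM. Ipo4 shares 55.3% of its exonic bases with Gm49378 on the same strand, which was at 0 to 3.29 CPM. All other members shared no more than 10.6% of their exonic bases with another annotated gene.

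The first comparison set the Kit-low libraries labelled Mettl3-deficient against control CFU-E. Of the 43 members tested, 4 were called higher, Xpo7, Nupl2, Nup50 and Nup62, and 1 was called lower, Nup37, with a fold of at least 1.5 and an adjusted p under 0.05. That is 9.3% of the members called higher against 12.1% of all 11979 genes tested, and 2.33% called lower against 9.83% of all genes. Without the minimum fold 7 were higher and 12 lower, 16.3% against 17.6% and 27.9% against 16.9% of all genes. The median log2 fold change was -0.05 over the 43 members and 0.008 over all genes, with 19 members (44.2%) fitted above 0 against 50.6% of all genes. In 25 of the 43 (58.1%) the 3 Kit-low libraries did not overlap the 3 control libraries, 8 above and 17 below, against 47.5% of all genes.

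**Figure D2:**
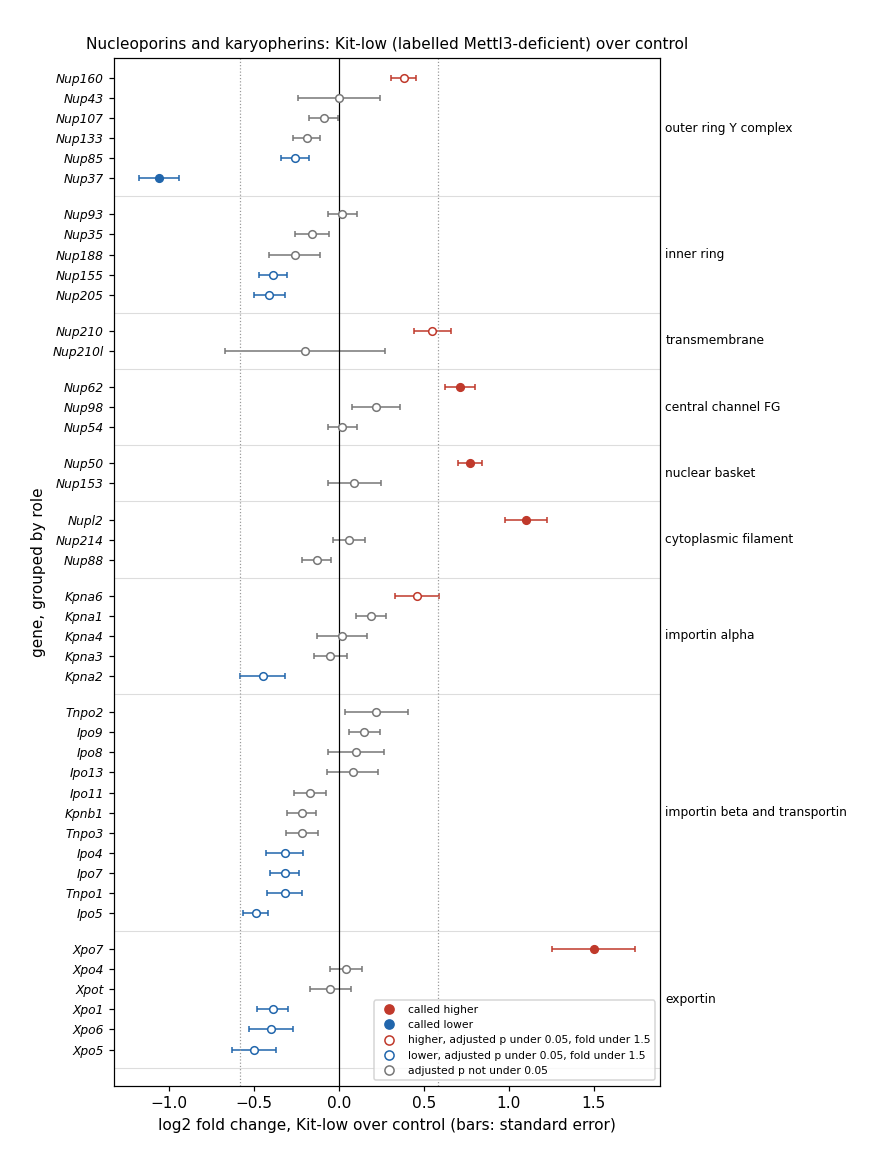
Log2 fold change of Kit-low CFU-E labelled Mettl3-deficient over control CFU-E (3 libraries each) for the 43 members tested, grouped by role, with standard errors as bars and dotted lines at a fold of 1.5 in either direction. Xpo7, Nupl2, Nup50 and Nup62 lie beyond the right dotted line and Nup37 beyond the left, while 14 others, drawn as open coloured circles, had an adjusted p under 0.05 and a smaller fold.

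Among the 6 outer ring genes, which form the Y-shaped scaffold, Nup37 (chr10:88146992-88178390, plus strand, GRCm38) fell. It was at 118, 128 and 147 CPM in control and 62.8, 55.7 and 67.3 CPM in Kit-low cells. All 3 Kit-low libraries lay below all control libraries, and the mean went from 131 ± 14.9 to 61.9 ± 5.86 CPM (SD, n = 3 each; log2 fold change -1.06, standard error 0.116, 2.09-fold lower, adjusted p = 9.2e-05 by edgeR's quasi-likelihood test). Its direct partner in the scaffold, Nup160, was at 246, 246 and 241 CPM in control and 335, 315 and 294 CPM in Kit-low cells, again without overlap but in the other direction. The rise was 1.3-fold (log2 fold change 0.38, standard error 0.075, adjusted p = 0.0032), under the minimum fold. Nup85 was 1.19-fold lower (log2 fold change -0.26, adjusted p = 0.039), a difference that did not pass without control replicate 1 or 3 or Kit-low replicate 2 or 3 (adjusted p = 0.09 to 0.17), whereas Nup107 (-0.09), Nup133 (-0.19) and Nup43 (0) did not pass the test.

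Of the 5 inner ring genes 0 were called and 2 were lower at an adjusted p under 0.05. Nup155 was at 135 to 146 CPM in control and 102 to 110.3 CPM in Kit-low cells (log2 fold change -0.39, standard error 0.083, adjusted p = 0.0047). Nup205 was at 183 to 199.8 CPM in control and 131 to 156 CPM in Kit-low cells (-0.41, standard error 0.09, adjusted p = 0.0054). Nup93, which links the inner ring to the channel, had the same mean of 261 CPM in both groups (log2 fold change 0.02, standard error 0.085), and Nup188 (-0.26) and Nup35 (-0.16) did not pass. Of the transmembrane pair, Nup210 was at 335, 309 and 342 CPM in control and 562, 425 and 439 CPM in Kit-low cells. It did not overlap between the groups and was 1.47-fold higher (log2 fold change 0.55, standard error 0.107, adjusted p = 0.0029), just under the minimum fold, and it passed that fold without Kit-low replicate 2 (0.65) or Kit-low replicate 3 (0.62).

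In the channel, Nup62 (chr7:44816088-44830812, plus strand) rose. It was at 817, 779 and 801 CPM in control and 1387, 1131 and 1368 CPM in Kit-low cells, so the lowest Kit-low library stood well above the highest control library. The mean was 799 ± 18.9 CPM in control and 1295 ± 143 CPM in Kit-low cells (SD, n = 3 each; log2 fold change 0.71, standard error 0.088, 1.64-fold, adjusted p = 2e-04), and a test against a fold of 1.5 itself did not call it (adjusted p = 0.18). Its annotated exons share 3.4% of bases with Il4i1 and 2.9% with Atf5. Nup54, which binds Nup62 in the channel, had a mean of 124 CPM in both groups (log2 fold change 0.02, standard error 0.086). Nup98, the GLFG nucleoporin known also from leukaemia fusions, was at 212, 141 and 200.3 CPM in control and 235, 204 and 196 CPM in Kit-low cells. These overlapped, and the log2 fold change of 0.22 (standard error 0.141) did not pass the test (adjusted p = 0.27).

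In the nuclear basket Nup50 (chr15:84923411-84942963, plus strand), which binds importin alpha and aids release of its cargo, rose. It was at 286, 264 and 286 CPM in control and 458, 485 and 469.9 CPM in Kit-low cells. The libraries of each group lay close together and far from the other group, with means of 279 ± 13 and 471 ± 13.5 CPM (SD, n = 3 each; log2 fold change 0.77, standard error 0.072, 1.71-fold, adjusted p = 3.9e-05). Its basket neighbour Nup153 was at 59.1, 53.1 and 53.5 CPM in control and 54.8, 47.2 and 72.6 CPM in Kit-low cells. The groups overlapped (log2 fold change 0.09, standard error 0.155, adjusted p = 0.69), and the sign turned to -0.08 without Kit-low replicate 3.

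On the cytoplasmic side, Nupl2 (chr5:24164963-24184013, plus strand), which binds the mRNA export factor Gle1, rose. It was at 68.1, 55.2 and 54.3 CPM in control and 137, 111 and 128 CPM in Kit-low cells, without overlap. The mean went from 59.2 ± 7.73 to 126 ± 13.3 CPM (SD, n = 3 each; log2 fold change 1.1, standard error 0.122, 2.15-fold, adjusted p = 1e-04). The other filament genes, Nup214 (0.06) and Nup88 (-0.13), which form a docking site for Xpo1, did not pass.

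**Figure D3:**
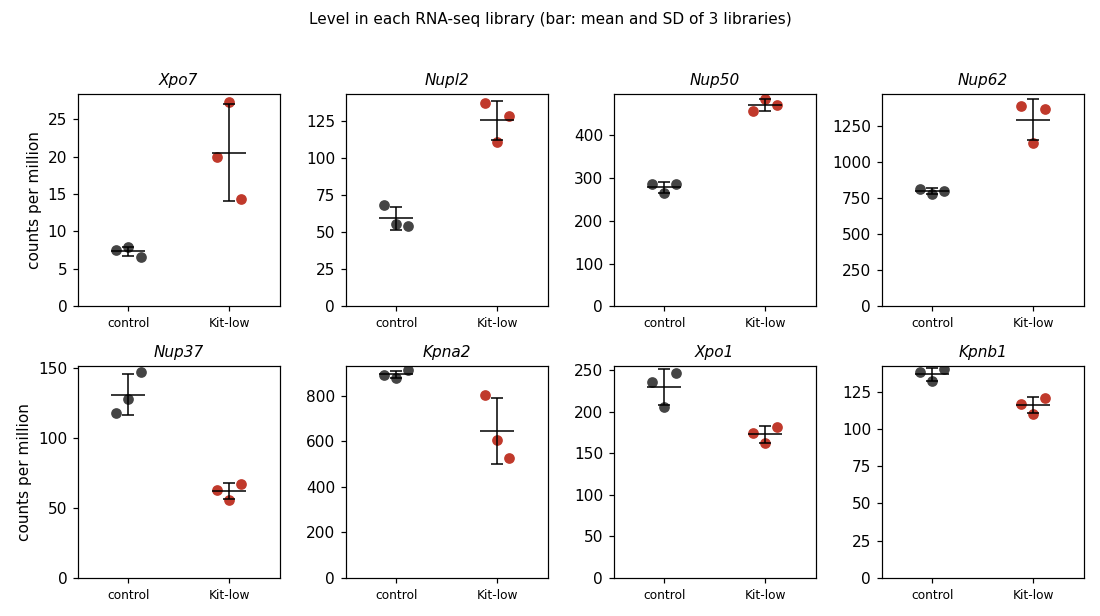
Level in CPM in each of the 3 control and 3 Kit-low libraries labelled Mettl3-deficient for 8 members, with the mean and SD as black bars and axes from 0. The groups do not overlap in any of the 8 panels, as in 25 of the 43 members tested (58.1%) and 47.5% of all genes. Kpnb1 did not pass the test (adjusted p = 0.068 by edgeR's quasi-likelihood test). Kpna2 and Xpo7 show the widest spread among Kit-low libraries relative to their mean.

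Among the carriers, the 6 exportins held both the gene with the largest rise and 3 lower genes. Xpo7 (chr14:70654246-70766628, minus strand) was at 7.54, 7.88 and 6.64 CPM in control and 20, 27.3 and 14.3 CPM in Kit-low cells. All Kit-low libraries lay above all control libraries, and they differed from each other more than the control libraries did. The mean went from 7.35 ± 0.642 to 20.5 ± 6.55 CPM (SD, n = 3 each; log2 fold change 1.5, standard error 0.244, 2.83-fold, adjusted p = 0.0011), and leaving out 1 library at a time gave log2 fold changes from 1.26 to 1.71. The late erythroid genes also stood higher in the Kit-low libraries, as given above, and their part in this rise was not tested.
Xpo1, which exports proteins with a leucine-rich signal, was at 236, 206 and 247 CPM in control and 174, 162 and 182 CPM in Kit-low cells. It was 1.31-fold lower without overlap (log2 fold change -0.39, standard error 0.091, adjusted p = 0.0074). Xpo5, the exporter of precursor microRNAs, was 1.41-fold lower (-0.5, standard error 0.132, adjusted p = 0.015), and Xpo6, the exporter of actin, 1.32-fold lower (-0.4, standard error 0.128, adjusted p = 0.036). Without Kit-low replicate 1 Xpo5 passed the minimum fold, at -0.65, and without control replicate 3 its adjusted p was 0.062. Xpo6 held its adjusted p only when Kit-low replicate 2 was left out, with values of 0.063 to 0.13 without any other library. Xpot, which exports tRNA, and Xpo4 had log2 fold changes of -0.05 and 0.04 and did not pass.

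Of the 11 importin betas and transportins 0 were called and 4 were lower at an adjusted p under 0.05. Ipo5, a carrier of ribosomal proteins and histones, was at 438 to 482 CPM in control and 309 to 327 CPM in Kit-low cells (log2 fold change -0.49, standard error 0.073, adjusted p = 7e-04). Ipo7, Ipo4 and Tnpo1, the carrier of M9-signal proteins such as hnRNP A1, each had a log2 fold change of -0.32, with adjusted p of 0.014, 0.042 and 0.036. Ipo7 did not pass without control replicate 3 (adjusted p = 0.063), and Ipo4 and Tnpo1 did not pass without control replicate 1 or 3 or Kit-low replicate 2 or 3 (adjusted p = 0.11 to 0.17 and 0.11 to 0.15). Ipo5 passed whichever library was left out. Kpnb1 was at 138, 132 and 140.1 CPM in control and 117, 110.3 and 121 CPM in Kit-low cells. The groups did not overlap, but the fold of 1.16 did not pass the test (log2 fold change -0.22, standard error 0.084, adjusted p = 0.068). Tnpo3, the carrier of SR splicing factors, Ipo11, Ipo9, Ipo13, Ipo8 and Tnpo2 ranged from -0.22 to 0.22 and did not pass.

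The importin alphas, which bind the classical import signal, differed among themselves. Kpna2 was at 893, 878 and 911 CPM in control and 805, 604 and 525 CPM in Kit-low cells. The control libraries were tight and the Kit-low libraries wide, with means of 894 ± 16.3 and 645 ± 144 CPM (SD, n = 3 each; log2 fold change -0.45, standard error 0.131, adjusted p = 0.022), and without Kit-low replicate 1 the log2 fold change was -0.64 and passed the minimum fold. Without any other 1 of the 6 libraries the adjusted p of Kpna2 was 0.052 to 0.11. Kpna6 was at 47.5, 48.2 and 43.3 CPM in control and 65.3, 53 and 70.8 CPM in Kit-low cells, 1.38-fold higher without overlap (0.46, standard error 0.13, adjusted p = 0.02), and did not pass without control replicate 1 or 3 or Kit-low replicate 3 (adjusted p = 0.058 to 0.093). Kpna1 (0.19), Kpna3 (-0.05) and Kpna4 (0.02) did not pass. Counted together, the 22 carriers tested had 2 higher (9.09%) and 8 lower (36.4%) genes at an adjusted p under 0.05, and the 21 nucleoporins 5 higher (23.8%) and 4 lower (19%), where 17.6% and 16.9% of all genes were higher and lower.

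Genes that work with these members were taken from general lists of other nucleoporins, the Ran cycle, other carriers, mRNA export and the nuclear envelope. Of 67 such genes tested, 7 were called higher (10.4%) and 3 lower (4.48%), against 12.1% and 9.83% of all genes, with a median log2 fold change of -0.08. Among the 10 nucleoporins and 8 Ran cycle genes 0 were called. Ran was at 206 to 227 CPM in control and 182 to 213 CPM in Kit-low cells (log2 fold change -0.13, standard error 0.084), and Rcc1, the exchange factor that charges Ran with GTP in the nucleus, did not pass either (-0.08, standard error 0.09), whereas Rcc2 of the same list was 1.35-fold lower without overlap (-0.43, standard error 0.086, adjusted p = 0.0034). Tpr, the main filament of the basket, was at 297 to 312 CPM in control and 185 to 247 CPM in Kit-low cells (-0.45, standard error 0.106, adjusted p = 0.0085). Cse1l, the exportin that returns importin alpha to the cytoplasm, was 1.17-fold lower (-0.23, adjusted p = 0.038), under the minimum fold, and did not pass with any 1 library left out (adjusted p = 0.054 to 0.14).

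The 6 called genes of mRNA and snRNA export went both ways. Nxt1, the partner of the mRNA export receptor Nxf1, was at 74.7, 66.3 and 69.6 CPM in control and 227, 218 and 247 CPM in Kit-low cells, a 3.33-fold rise (log2 fold change 1.74, standard error 0.091, adjusted p = 1.4e-06). Phax, the adapter that links snRNA to Xpo1, was at 42 to 50.3 CPM in control and 91.2 to 104 CPM in Kit-low cells (1.14, standard error 0.11, adjusted p = 4.4e-05). Thoc5, of the THO complex, was at 71.5 to 75.5 CPM in control and 39.3 to 42.5 CPM in Kit-low cells (-0.84, standard error 0.101, adjusted p = 0.00018).
Alyref2 rose from 2.06 ± 0.229 to 4.68 ± 0.496 CPM (SD, n = 3 each; 1.2, adjusted p = 0.014), a call lost without control replicate 3. The near-identical helicases Ddx19a (0.63, adjusted p = 0.028) and Ddx19b (-0.59, adjusted p = 0.0028) were called in opposite directions, and their reads may be split between them. The Ddx19a call was lost without any 1 of control replicates 1, 2 and 3 or Kit-low replicate 1, and the Ddx19b call without control replicate 1 or Kit-low replicate 3.
At the nuclear envelope Syne3, a nesprin, was at 3.12 to 5.46 CPM in control and 17.5 to 26.9 CPM in Kit-low cells (2.44, standard error 0.269, adjusted p = 9.9e-05). Of the 3 lamins, Lmna and Lmnb2 were called in opposite directions, Lmna rising from 376 to 439.7 CPM in control to 646 to 711 CPM in Kit-low cells (0.72, standard error 0.082, adjusted p = 0.00013) and Lmnb2 falling from 92.1 to 108 CPM in control to 39.4 to 49.5 CPM in Kit-low cells (-1.16, standard error 0.116, adjusted p = 5.6e-05), while Lmnb1, at 241 to 248 CPM in control and 124 to 215 CPM in Kit-low cells, did not pass (-0.41, adjusted p = 0.097). Tor1a, an ATPase of the envelope lumen, was 1.65-fold higher (0.72, standard error 0.128, adjusted p = 0.0018).

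The m6A experiment compared IP with input in control CFU-E, to ask which mRNAs the antibody enriches. Of the 43 members tested 9 were called higher in the IP and 2 lower, at an adjusted p under 0.05. That is 20.9% called higher against 7.9% of 11447 genes tested, and 4.65% called lower against 7.86% of all genes. The median log2 ratio of IP over input was 0.64 over the members and 0.056 over all genes, with 32 of 43 members (74.4%) fitted above 0 against 53.2% of all genes. The count depends on scaling and on single libraries. Upper quartile scaling moved the median of all genes from 0.056 to 0.184 and called 20 members higher and 2 lower, beside 1451 higher of all 11447 genes against 904 as reported, library sizes alone moved it to 0.213 and called 8 and 2, and the higher share of all calls went from 50.1% to 65.8% and 60.6%. The count of higher members was 3 without input replicate 1, 6 without input replicate 2, 3 without IP replicate 1 and 15 without IP replicate 2. The count over all genes moved with it, to 164, 571, 433 and 1358 in the same order.

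**Figure D4:**
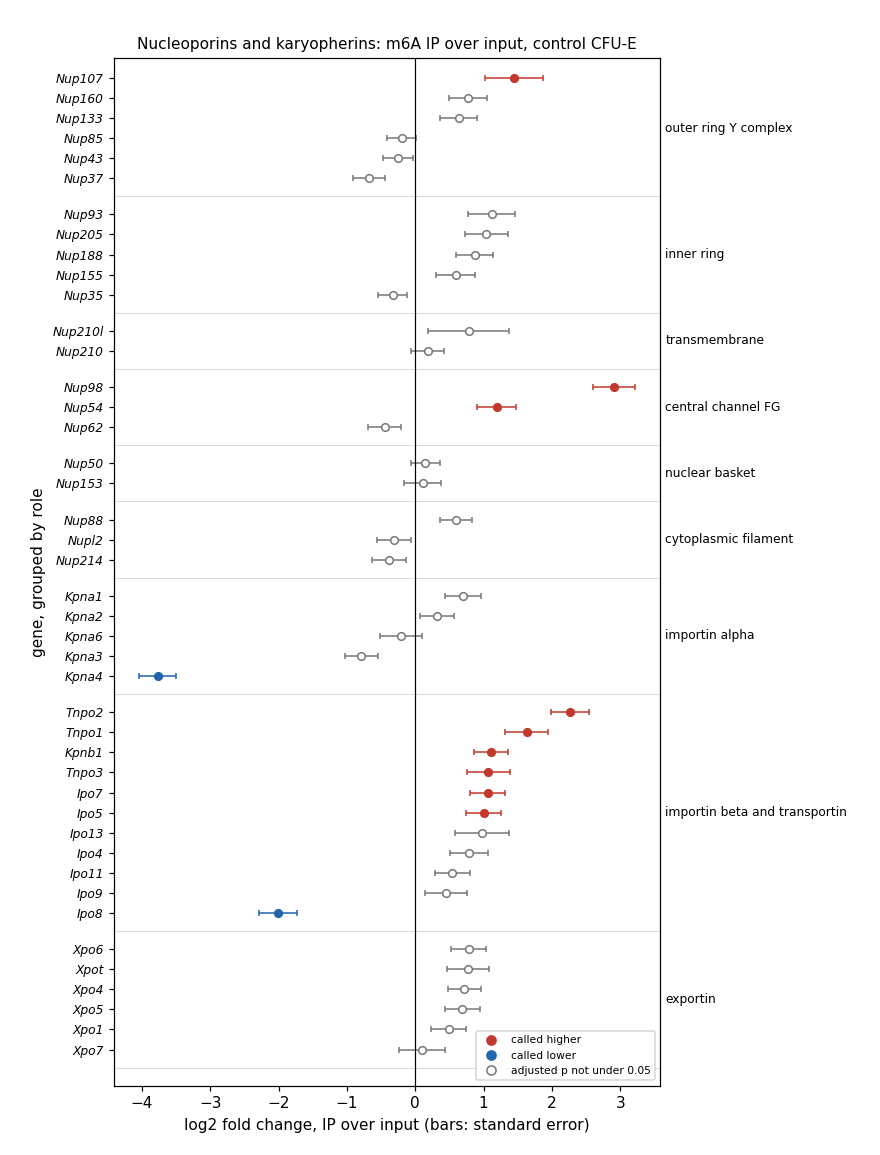
Log2 ratio of m6A IP over input in control CFU-E (2 libraries each) for the 43 members tested, grouped by role, with standard errors as bars. Filled red circles mark the 9 genes called higher, of which 6 are importin betas and transportins, and filled blue circles the 2 called lower, Kpna4 and Ipo8.

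Nup98 had the highest ratio. It was at 3.13 and 4 CPM in the input libraries and 31.1 and 22.2 CPM in the IP libraries, from 71 and 71 counts in the inputs and 1299 and 442 counts in the IPs (log2 ratio 2.91, 7.52-fold, adjusted p = 0.00015). Tnpo2 was at 4.36 and 3.77 CPM in the inputs and 19.7 and 19.3 CPM in the IPs, with replicates close together (2.26, 4.78-fold, adjusted p = 0.00045). Both were called under every one of the 11 alternatives run, and their inputs lay in the lower end of the members. Those alternatives all draw on the same input and IP libraries. In RNA-seq of control CFU-E, Nup98 was at 212, 141 and 200.3 CPM and Tnpo2 at 47.5, 32.6 and 43.1 CPM, far above their inputs. The input and IP libraries were amplified from fragmented cDNA with a primer at the 3′ end, a different preparation from Smart-seq2. CPM of the RNA-seq and of the inputs are therefore not like measures of the level of a gene. Across the 43 members, log2 mean levels in RNA-seq control and in the input had a Pearson correlation of 0.4 and a Spearman correlation of 0.17. The reason for the difference was not tested. Tnpo2 shares 10.6% of its exonic bases with A230103J11Rik on the opposite strand.

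Of the other importin betas and transportins, Tnpo1 was at 13.3 and 24.1 CPM in the inputs and 66 and 48.7 CPM in the IPs (1.63, adjusted p = 0.0071). Kpnb1 was at 29.4 and 37.6 CPM in the inputs and 80.1 and 63.9 CPM in the IPs (1.11, adjusted p = 0.014). Tnpo3 (1.07, adjusted p = 0.042), Ipo7 (1.06, adjusted p = 0.02) and Ipo5 (1, adjusted p = 0.027) had smaller ratios and were called. In each of these 5 both IP libraries lay above both input libraries, as they did in 28 of the 43 members tested. The share over all genes was not counted. Their calls did not hold for every library left out, since Tnpo1 was lost without input replicate 1 (1.23), Kpnb1 and Tnpo3 without input replicate 1 (0.92 and 0.68) or IP replicate 1 (0.92 and 0.91), and Ipo7 and Ipo5 without input replicate 1 (1.07 and 1.04), input replicate 2 (1.02 and 0.94) or IP replicate 1 (0.98 and 0.77).

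Among nucleoporins, Nup107 was at 17.6 and 11.5 CPM in the inputs and 58.4 and 21.1 CPM in the IPs. The IP libraries differed widely from each other, so that the log2 ratio of 1.45 (adjusted p = 0.043) became 0.52 without IP replicate 1, and the call was also lost without either input library. Nup54 was at 17.6 and 13.6 CPM in the inputs and 42.9 and 28.3 CPM in the IPs (1.19, adjusted p = 0.02), a call lost without input replicate 1, input replicate 2 or IP replicate 1. Of the 5 inner ring genes 4 were fitted above 0 and 0 were called, with Nup93 (1.12, adjusted p = 0.052), Nup205 (1.04, adjusted p = 0.051) and Nup188 (0.87, adjusted p = 0.051) just outside the threshold. In the channel Nup62 was at 178 and 141 CPM in the inputs and 135 and 97.9 CPM in the IPs (-0.45, adjusted p = 0.23).

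The 2 genes lower in the IP were carriers. Kpna4, an importin alpha, was at 96.8 and 135 CPM in the inputs and 8.07 and 8.92 CPM in the IPs (log2 ratio -3.77, 13.6-fold lower, adjusted p = 1.1e-05). Ipo8 was at 63 and 42.8 CPM in the inputs and 11.9 and 14.3 CPM in the IPs (-2.01, 4.04-fold lower, adjusted p = 0.00091). Both IPs lay below both inputs for either gene, as they did in 9 of the 43 members tested, and both calls held under all 11 alternatives. In RNA-seq of control CFU-E, Kpna4 was at 25.3, 22.5 and 25.2 CPM, nearer to its IPs than to its inputs. Ipo8 was at 45, 43.7 and 47.7 CPM there, within the range of its inputs. These CPM come from different library preparations, as given above, and the reason for the difference in Kpna4 was not tested. The other importin alphas were spread, with Kpna3 at -0.79 (adjusted p = 0.051), Kpna6 at -0.21, Kpna1 at 0.7 (adjusted p = 0.098) and Kpna2, at 719 and 520.3 CPM in the inputs and 871 and 674 CPM in the IPs, at 0.32 (adjusted p = 0.41).

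All 6 exportins were fitted above 0, from 0.1 to 0.78, and 0 were called. Xpo1 was at 19.2 and 18.5 CPM in the inputs and 30 and 22.7 CPM in the IPs (0.49, adjusted p = 0.22). Xpo7, which rose in Kit-low cells, was at 4.58 and 3.77 CPM in the inputs and 5.17 and 3.71 CPM in the IPs, with overlap (0.1, adjusted p = 0.88), and its sign turned without input replicate 2 (-0.04) or IP replicate 1 (-0.19). Nup153 was at 11.8 and 14.5 CPM in the inputs and 15.5 and 12.7 CPM in the IPs (0.11, adjusted p = 0.82), and its sign also turned without input replicate 1 (-0.05) or IP replicate 1 (-0.06). The other genes called in Kit-low cells, Nupl2 (-0.31), Nup50 (0.15) and Nup37 (-0.68), did not pass in the IP, and Nup37 was the only member tested whose chosen transcript holds no GGACT.

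Among the 66 genes of the partner lists tested in the m6A table, 4 were called higher, Ranbp2, Thoc1, Sarnp and Zc3h11a (6.06%), and 5 lower, Pom121, Alyref, Lmna, Tmpo and Senp2 (7.58%), shares near the 7.9% and 7.86% of all genes. Alyref, an mRNA export adapter, was at 972 and 866 CPM in the inputs and 17.2 and 29 CPM in the IPs (log2 ratio -5.32, adjusted p = 4.9e-06). In RNA-seq of control CFU-E, Alyref was at 22.7, 22.4 and 22.2 CPM, within the range of its IPs and far below its inputs. These CPM too come from different library preparations, and the reason for the difference was not tested for Alyref. Ranbp2, the SUMO ligase of the cytoplasmic filaments, was at 12.9 and 15.2 CPM in the inputs and 27 and 24.1 CPM in the IPs (0.87, adjusted p = 0.042).

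No member was called in both experiments, where 88 lower and 89 higher calls in RNA-seq fell among the 864 genes of the whole table called higher in the IP. Of the 9 members called higher in the IP, 3 were lower in Kit-low cells at an adjusted p under 0.05, Ipo5, Ipo7 and Tnpo1, 0 were higher and 6 did not pass. Of those 864 genes, tested in both, 192 were lower and 145 higher at the same threshold. The median RNA change was -0.22 for the 9 members, -0.06 for the 864 genes and 0 for all 10768 genes tested in both. Across genes, which are not independent replicates, the log2 IP ratio and the log2 RNA change had a Pearson correlation of -0.12 over the 43 members and -0.03 over the 10768 genes. The log2 IP ratio and the log2 input level, which share the input libraries, had a correlation of -0.54 over the 43 members and -0.29 over 11441 genes. With log2 transcript length the correlation was 0.27 over the members and 0.25 over all genes, and with GGACT per kilobase 0.29 and -0.06.

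**Figure D5:**
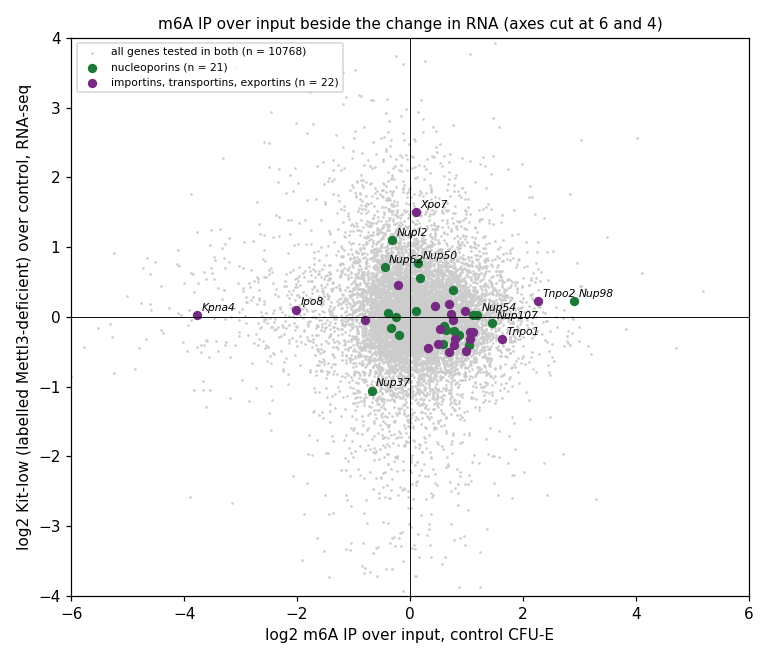
Log2 ratio of m6A IP over input in control CFU-E (horizontal) against the log2 change of Kit-low CFU-E labelled Mettl3-deficient over control CFU-E in RNA-seq (vertical) for 10768 genes (grey), nucleoporins (green) and carriers (purple); 52 genes lie outside the drawn axes. The genes far to the right or left, Nup98, Tnpo2, Kpna4 and Ipo8, lie between 0.02 and 0.22 on the vertical axis, and Xpo7, at the top of the members, lies at 0.1 on the horizontal axis.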

How the data were processed

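RNA-seq was made by Smart-seq2 with oligo-dT priming from sorted CFU-E, and m6A IP and input libraries from control CFU-E. The authors deposited 1 table of estimated counts per gene symbol for each experiment, made by filtering reads with fastp 0.23.4, quantifying transcripts with kallisto 0.48.0 and summing to genes, and the submitters' processing notes name mm10 and GRCm39 as builds. The deposited values were whole numbers and were rounded before use. The primer of the m6A libraries carried a molecular identifier, and no counting step that used it is named; whether counting used strand is not given in the sources used here, so overlapping genes are uncertain and PCR copies are not independent molecules. Of 16 samples 10 had columns in the tables. Counts were fitted over all genes with edgeR 4.0.16 in R 4.3.3 (low-count filter, TMM, quasi-likelihood test, Benjamini-Hochberg adjustment, two-sided), separately for each experiment. RNA-seq calls needed a fold of at least 1.5 and an adjusted p under 0.05, and m6A calls an adjusted p under 0.05. Named with values for each library were all members called in RNA-seq, the 6 with the highest IP ratio among those called and those called lower, Xpo1, Kpnb1, Kpna2, Xpo7, Nup98 and Nup153, with called partner genes and Ran, Rcc1, Cse1l and Tpr; Nup160, Nup210 and Kpna6 were added after their values were seen. The members and lists were chosen with earlier results of these data known. Alternatives were DESeq2 1.42.0, other scalings, filters, thresholds, a replicate block and leaving out 1 library at a time. The fits were tested on simulated data. No pair of libraries held identical values.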

Additional observations from a re-analysis of the deposited data

How the results depend on the processing

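The limits are the 3 or 2 libraries a group, the Kit gate that differs with genotype, and counts per gene that place no m6A site. Without a minimum fold 7 members were called higher and 12 lower in Kit-low cells, and 12 partner genes lower; a test against a fold of 1.5 called 3 partner genes higher. Leaving out 1 library at a time called 4 to 6 members higher and 1 to 3 lower, with 3 lower only without Kit-low replicate 1. In the IP, upper quartile scaling called 20 members higher, DESeq2 called 4 lower, and leaving out 1 library at a time called 3 to 15 higher and 2 to 3 lower. The sign turned for Nup153 in RNA-seq (-0.08 to 0.25 over libraries left out) and, in the IP, for Nup153 (-0.06 to 0.25, with -0.05 without input replicate 1) and Xpo7 (-0.19 to 0.3, with -0.04 without input replicate 2). The cause was not tested. In the RNA-seq, deviations of same-numbered libraries correlated at 0.034, -0.017 and -0.072, against -0.105 to 0.12 for libraries of different numbers. These values show no pairing by replicate number but cannot exclude it. The replicate block left the counts of 4 and 1 members and 7 and 3 partner genes. In the m6A experiment no label ties same-numbered input and IP libraries and 2 pairs cannot settle it (correlation 0.205); with the replicate block 21 members were called higher and 5 lower, beside 1783 and 1755 of all 11447 genes against 904 and 900 without it. The calls of Nup98, Tnpo2, Kpna4 and Ipo8 in the IP, and of Xpo7, Nupl2, Nup50 and Nup37 in RNA-seq, held under all 11 and all 15 alternatives, and that of Nup62 under all but the test against a fold of 1.5. Dropping the minimum fold in RNA-seq and adding a fold of 1.5 in the IP reused the main fit. Those alternatives could not have removed these calls.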
